A study of Arabidopsis thaliana with 6 samples.

Results

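The 45 genes described here are nuclear genes of Arabidopsis thaliana whose products build the photosynthetic apparatus or its pigments. They were taken by locus from a given list and all 45 were found among the 32884 rows of each expression table. By role they are 4 genes for antenna proteins of photosystem I (LHCA), 14 for antenna proteins of photosystem II (LHCB), 4 for small subunits of Rubisco (RBCS), 6 for photosystem subunits (PSA and PSB), 12 for chlorophyll synthesis, 3 for carotenoid synthesis, and the transcription factor genes GLK1 and GLK2. The question put to them was whether loss of the histone deacetylase HDA15 raises their transcripts in seeds kept in the dark.

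Libraries were made from whole seeds of hda15-1, a mutant of HDA15 in the Col-0 accession (3 libraries), and of wild-type Col-0 (3 libraries). Seeds of both genotypes had been dried for about 1 month, were wetted for 1 h, were given far-red light for 5 min at 3.82 µmol m-2 s-1, and then stayed in darkness for 12 h at 22 °C before RNA was taken. Far-red light converts the photoreceptor phytochrome to its inactive form, so every library describes seeds with little active phytochrome. No light-treated group and no second allele or complemented line was analysed here. Values are FPKM, fragments mapped to a transcript scaled for its length and for the library total, which are on a per-length scale and can be compared between genes.

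Light-harvesting proteins bind chlorophyll and carotenoids and pass absorbed energy to the photosystems. In dark-grown seedlings their genes and those of chlorophyll synthesis are held low by phytochrome-interacting factors such as PIF1 and PIF3, which bind G-box elements, and HDA15 is known to act with PIF3 at such genes. GLK1 and GLK2 act in the other direction, as activators of antenna and chlorophyll synthesis genes.

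The G-box, CACGTG, reads the same on both strands and was looked for in the 250 bases before the annotated start of each gene in the RefSeq assembly TAIR10.1. It stood in 8 of the 45 windows, or 17.8%, and in 6.49% of the windows of 27443 protein-coding genes. The I-box letters GATAAG, searched on both strands, stood in 9 windows (20.0%, against 12.3% of all), and CCAATC on either strand in 13 (28.9%, against 10.2% of all). These matches describe letters only, since no binding was measured. Shown are the 4 windows with a G-box that lie before a gene high enough to be tested and that overlap no other gene, each written in the direction of transcription with the G-box in capitals. They are LHCA4 at chr3:17495034-17495283 on the minus strand, LHCB4.1 at chr5:208616-208865 on the plus strand, PSBQ2 at chr4:2673244-2673493 on the minus strand and CAO at chr1:16851272-16851521 on the minus strand.
LHCA4: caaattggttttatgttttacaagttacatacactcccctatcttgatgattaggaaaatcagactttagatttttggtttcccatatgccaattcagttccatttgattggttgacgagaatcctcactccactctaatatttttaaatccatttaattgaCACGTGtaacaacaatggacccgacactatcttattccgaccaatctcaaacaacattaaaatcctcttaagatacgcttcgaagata
LHCB4.1: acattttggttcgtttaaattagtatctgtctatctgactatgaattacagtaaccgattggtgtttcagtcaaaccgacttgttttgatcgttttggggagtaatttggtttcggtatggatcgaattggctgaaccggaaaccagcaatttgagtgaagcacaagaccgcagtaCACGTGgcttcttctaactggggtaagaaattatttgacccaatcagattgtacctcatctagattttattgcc
PSBQ2: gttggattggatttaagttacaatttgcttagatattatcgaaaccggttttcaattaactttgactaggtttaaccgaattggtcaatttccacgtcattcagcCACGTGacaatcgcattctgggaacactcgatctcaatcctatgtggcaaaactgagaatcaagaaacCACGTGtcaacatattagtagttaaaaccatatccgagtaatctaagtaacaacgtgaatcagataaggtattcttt
CAO: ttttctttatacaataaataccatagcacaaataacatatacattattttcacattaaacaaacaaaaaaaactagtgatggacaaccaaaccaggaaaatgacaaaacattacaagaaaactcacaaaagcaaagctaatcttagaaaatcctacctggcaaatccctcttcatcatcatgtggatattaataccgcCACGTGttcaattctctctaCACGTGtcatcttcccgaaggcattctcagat
The first base of the G-box lay 88 bases before the gene start in LHCA4 and 74 bases before it in LHCB4.1. PSBQ2 held a pair of them at 145 and 77 bases, and CAO a pair at 52 and 32 bases. The other 4 windows with a G-box belong to CRD1, LHCB2.3, LHCB6 and RBCS2B. None of the 3 carotenoid synthesis genes and neither GLK gene had one.

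HDA15 itself (AT3G18520, chromosome 3, 6361159 to 6365705) checked the labels. It stood at 0.338, 0.651 and 0.417 FPKM in hda15-1 seeds, against 16.1, 12.97 and 14.8 FPKM in wild-type seeds, a log2 difference of -3.41 ± 0.18 (SE, n = 3 each) with an adjusted p of 3.79e-04 by limma. All log2 differences here are hda15-1 minus wild type on log2(FPKM + 1), which understates changes of low genes. Among the 15045 genes averaging 1 FPKM or more over the libraries, 30 were higher and 3 were lower in hda15-1 at an adjusted p under 0.05. The number higher was 8 without hda15-1 2, 10 without hda15-1 3, 9 without wild type 2 and 10 without wild type 3. It was 26 without hda15-1 1 and 31 without wild type 1. Over all tested genes the median log2 difference was 0.02, and 54.4% were above 0. Of the embryo reserve markers 11 of 11 were tested, 10 were above 0 with a median of 0.20 over the 11, and none passed the threshold. CRU3 among them was listed at 0 in hda15-1 2 and in wild type 3, which can be a failed estimate, and without CRU3 the others summed to 50726, 87137 and 68637 FPKM in hda15-1 and to 48076, 55943 and 76679.6 FPKM in wild type. Of the 4 endosperm markers none passed the threshold, and 3 overlapped between genotypes. The fourth, the expansin gene EXPA2, had 156, 164 and 247 FPKM in hda15-1, against 78.6, 17.2 and 19.9 FPKM in wild type, a log2 difference of 2.58 ± 0.52 (SE) with an adjusted p of 0.223 by limma, and its part in the results below was not tested. Seed coat markers were near 0, with sums of 1.08 to 2.45 FPKM in hda15-1 and 1.05 to 2.22 FPKM in wild type, and BAN and TT2 were listed at 0 in every library. In whole seeds fewer cells of a type and less RNA per cell cannot be told apart.

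No photosynthesis or pigment gene passed the test in either direction. Of the 45 genes, 25 reached the minimum level and were tested, and 0 were higher and 0 lower in hda15-1, against 0.199% of all tested genes called higher and 0.0199% called lower. By limma 0 of the 25 had an unadjusted p under 0.05, against 4.28% of all tested genes, and every adjusted p was 1.000 after rounding. Of the 25, 13 had a log2 difference above 0 and 12 below it, with a median of 0.01 and a range of -0.32 to 0.59, and the median over all tested genes was 0.02. In FPKM as deposited, the libraries of the genotypes overlapped in all 25 genes. Of all tested genes, 5.78% had every hda15-1 library above every wild-type library and 3.43% had every one below. The sum of all FPKM ran from 879239 to 1159520 in hda15-1 libraries and from 912906 to 1033700 in wild-type libraries. Overlap was not counted again with libraries scaled to equal sums, so it holds for the deposited values only. On the log2(FPKM + 1) scale the upper 95% limit of the difference was under 1 for 23 of the 25, the exceptions being RBCS3B and CHLI1, and the lower limit was above -1 for all 25. For genes near 1 FPKM, such as GLK1 and LHCB5, these limits leave room for larger ratios of FPKM. The limits also depend on wild type 1, and without it the upper limit passed 1 for further genes, as given below. Nothing in the labels says whether the 3 libraries per genotype are from different seed harvests, so a p-value reflects the spread among these 6 libraries alone, part of which may be technical. For any one gene the smallest p that an exact permutation test of 3 libraries against 3 allows is 0.1.

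**Figure D1:**
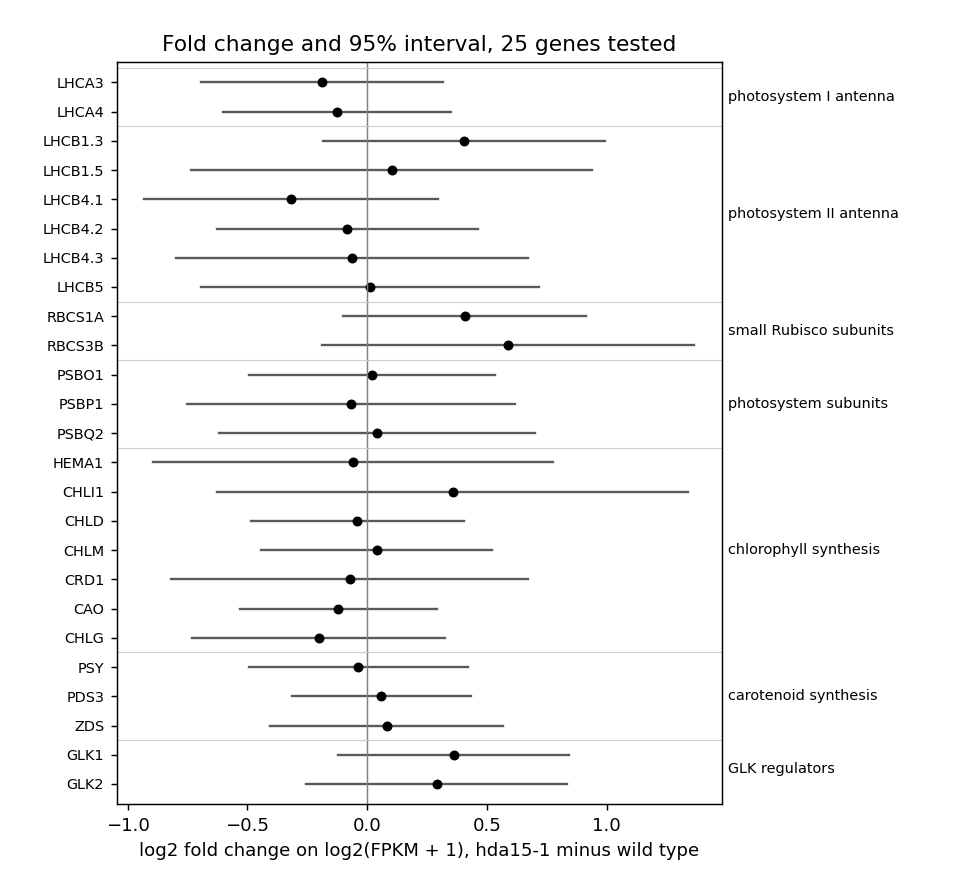
Log2 difference of each of the 25 tested genes, hda15-1 minus wild type on log2(FPKM + 1), with its 95% interval from limma, grouped by role. The points lie between -0.32 and 0.59 and every interval crosses 0.

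Most of these genes were low in the seeds. Their mean level over the 6 libraries was under 0.2 FPKM for 3 genes, between 0.2 and 1 for 17, between 1 and 10 for 16, and 10 FPKM or more for 9. By an estimate from the smallest steps of the values, 1 read in 1 kb of transcript came to 0.0945 to 0.1202 FPKM in hda15-1 libraries, against 0.0885 to 0.111 FPKM in wild-type libraries. The values did not resolve into whole reads, so this scale is approximate and the number of reads behind a low value is not known. GUN4, PORA, LHCB2.3 and RBCS2B were listed at 0 in at least 1 library. Some groups of close relatives share sequence that could move reads between them: over 10% of the 50-base windows of 10 genes also occur in another gene, up to 28.2% for LHCB2.2 and 22.7% for LHCB2.1, while 33 genes share none. Values of single genes among LHCB1.1 to LHCB1.5, LHCB2.1, LHCB2.2, RBCS1B, RBCS2B and RBCS3B are therefore uncertain.

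**Figure D2:**
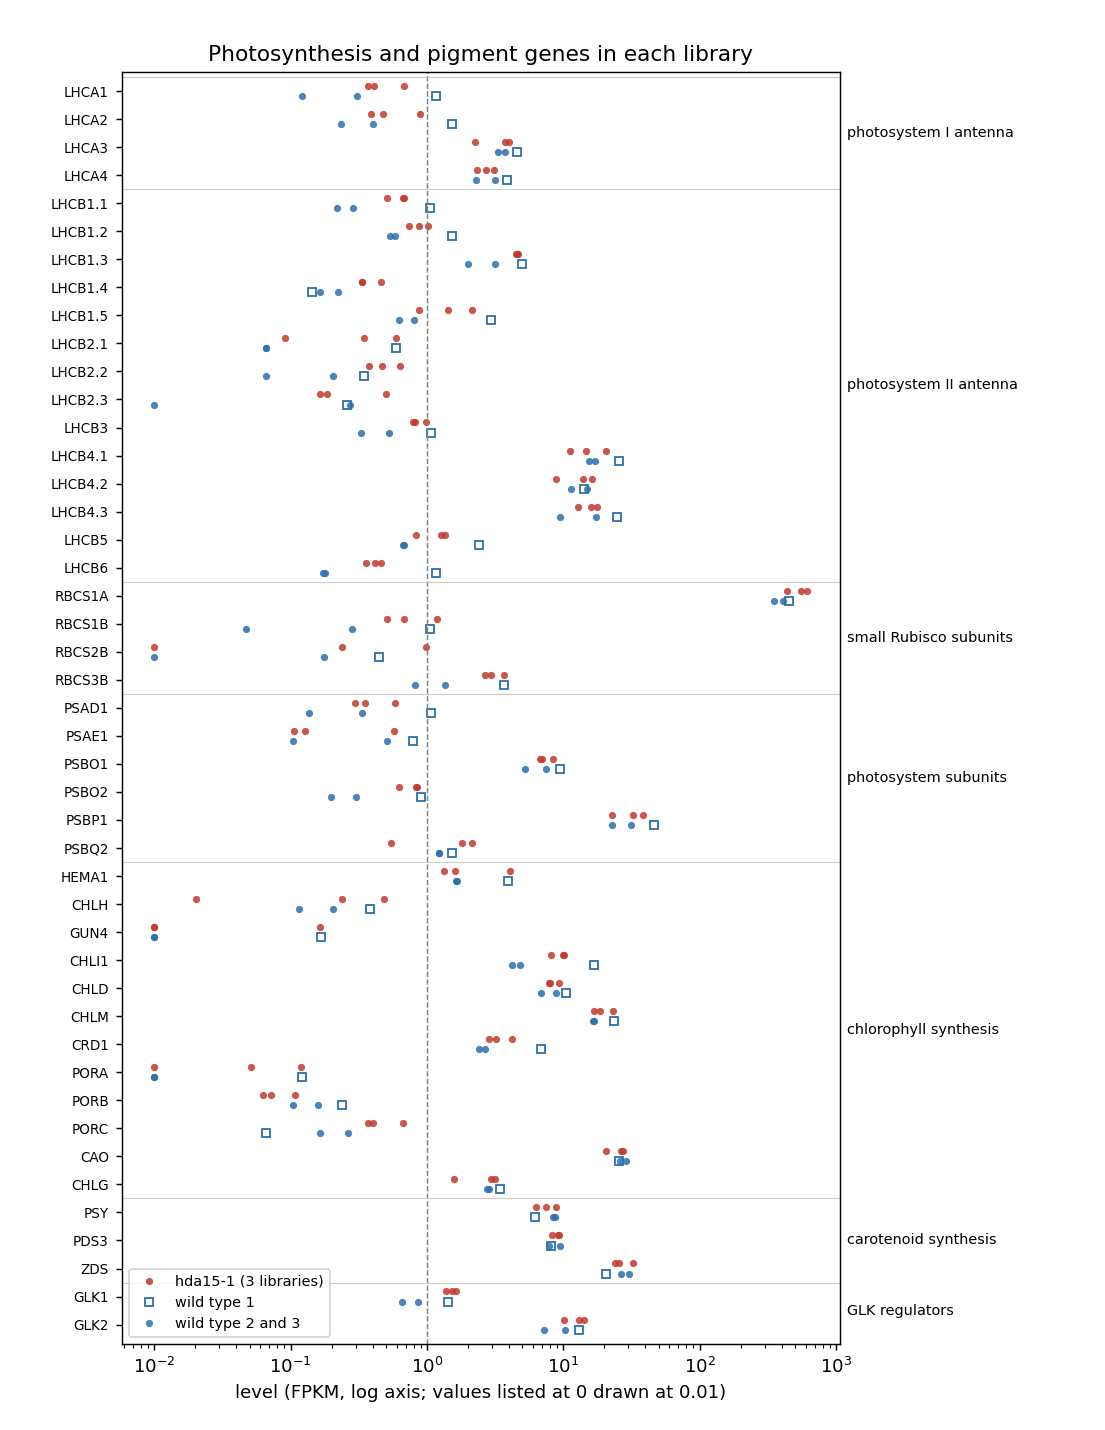
Level of each of the 45 genes in each library in FPKM on a log axis, hda15-1 above wild type within each row, with values listed at 0 drawn at 0.01 and the dashed line at the minimum mean of 1 FPKM. RBCS1A lies far to the right of the others, and in most rows wild type 1, the open square, lies to the right of wild type 2 and 3.

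Both GLK genes were detected in every library. GLK1 (AT2G20570, chromosome 2, 8855302 to 8857758), an activator of antenna and chlorophyll genes, had 1.52, 1.63 and 1.39 FPKM in hda15-1 seeds, against 1.42, 0.661 and 0.859 FPKM in wild-type seeds. GLK2 (AT5G44190, chromosome 5, 17798262 to 17800926), its close relative, had 10.05, 14.1 and 13.1 FPKM in hda15-1 seeds, against 12.97, 7.203 and 10.2 FPKM in wild-type seeds. In both genes wild type 2 was the lowest library and wild type 1 lay within the hda15-1 range. The log2 difference was 0.36 ± 0.21 (SE) for GLK1, with a 95% interval of -0.12 to 0.84, and 0.29 ± 0.24 for GLK2, and neither passed the test.

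Chlorophyll synthesis was split between genes near 0 and genes at moderate levels. The 3 protochlorophyllide oxidoreductase genes, whose enzymes carry out the light-dependent step, were all below the minimum. PORA had 0.0509, 0.118 and 0 FPKM in hda15-1 and 0.121, 0 and 0 FPKM in wild type, and PORB stayed between 0.0633 and 0.108 FPKM in hda15-1 and between 0.104 and 0.237 FPKM in wild type. PORC had 0.667, 0.399 and 0.368 FPKM in hda15-1 and 0.0666, 0.262 and 0.166 FPKM in wild type. PORC was thus higher in every hda15-1 library, at levels under 1 FPKM. Fitted with no minimum level, where 0 of the 45 genes were called and 0.102% of all genes were called higher and 0.0185% lower, PORC differed by 0.34 ± 0.11 (SE) on the log2 scale with an unadjusted p of 0.0158 and an adjusted p of 0.679 by limma. Among the 20 genes below the minimum, 3 had every hda15-1 library above every wild-type library, namely PORC, LHCB1.4 and LHCB2.2, and 0 had every one below. Of all genes with a mean above 0 and under 1 FPKM, 5.96% lay wholly above and 4.85% wholly below.

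The magnesium chelatase that commits protoporphyrin to chlorophyll needs 3 kinds of subunit and was unevenly represented. CHLH, the porphyrin-binding subunit, stayed under 0.5 FPKM in every library, with 0.482, 0.239 and 0.0203 FPKM in hda15-1 and 0.381, 0.115 and 0.204 FPKM in wild type. GUN4, which stimulates the chelatase, was listed at 0 in 2 of 3 hda15-1 libraries and in 2 of 3 wild-type libraries. CHLD had 7.87, 9.24 and 8.02 FPKM in hda15-1 and 10.5, 6.83 and 8.91 FPKM in wild type. CHLI1, the main ATPase subunit (AT4G18480, chromosome 4, 10201672 to 10203469), had 9.98, 8.19 and 10.1 FPKM in hda15-1, against 16.7, 4.802 and 4.202 FPKM in wild type. The hda15-1 libraries lay close together, and the wild-type libraries stood on either side of them, with wild type 1 highest. The log2 difference of CHLI1 was 0.36 ± 0.43 (SE), with a 95% interval of -0.63 to 1.34, and did not pass the test.

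The other enzymes of chlorophyll synthesis differed little between genotypes. CAO (AT1G44446, chromosome 1, 16848308 to 16851271), which makes chlorophyll b from chlorophyll a, had 20.5, 27.3 and 26.5 FPKM in hda15-1 and 25.6, 26.1 and 28.8 FPKM in wild type. Its log2 difference was -0.12 ± 0.18 (SE), with an interval of -0.53 to 0.29. CHLG (AT3G51820, chromosome 3, 19215930 to 19219128), which attaches the phytol tail, had 3.13, 2.97 and 1.57 FPKM in hda15-1 and 3.44, 2.85 and 2.75 FPKM in wild type, a difference of -0.20 ± 0.23. HEMA1, the glutamyl-tRNA reductase gene at the start of the pathway, had 4.08, 1.33 and 1.61 FPKM in hda15-1 and 3.94, 1.64 and 1.67 FPKM in wild type. The library numbered 1 of each genotype was the high one for HEMA1, and its log2 difference had an interval of -0.89 to 0.78. CHLM, the methyltransferase, lay between 16.7 and 23.2 FPKM in hda15-1 and between 16.4 and 23.7 FPKM in wild type. CRD1, a subunit of the cyclase, had 2.85, 3.22 and 4.21 FPKM in hda15-1 and 6.82, 2.43 and 2.67 FPKM in wild type. The log2 difference of CRD1 had an interval of -0.82 to 0.67, and 259 bases of it are overlapped on the opposite strand. Over the 7 tested genes of the pathway the median log2 difference was -0.06.

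The 3 carotenoid synthesis genes, which make precursors of both photosynthetic carotenoids and abscisic acid, were all expressed and overlapped between genotypes. PDS3, phytoene desaturase (AT4G14210, chromosome 4, 8190190 to 8195320), had 8.23, 9.28 and 9.13 FPKM in hda15-1 and 8.07, 7.91 and 9.49 FPKM in wild type, a log2 difference of 0.06 ± 0.16 (SE). ZDS, zeta-carotene desaturase (AT3G04870, chromosome 3, 1342455 to 1346387), had 23.9, 32.6 and 25.5 FPKM in hda15-1 and 20.5, 26.6 and 30.6 FPKM in wild type, a difference of 0.08 ± 0.21. Scaling every library to the same sum turned both differences below 0. PSY, phytoene synthase, the entry enzyme, lay between 6.27 and 8.78 FPKM in hda15-1 and between 6.17 and 8.65 FPKM in wild type.

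Of the photosystem I antenna, LHCA3 and LHCA4 were tested and LHCA1 and LHCA2 were below the minimum. LHCA3 (AT1G61520, chromosome 1, 22699715 to 22701412) had 2.27, 3.97 and 3.72 FPKM in hda15-1, against 4.57, 3.72 and 3.33 FPKM in wild type. LHCA4 (AT3G47470, chromosome 3, 17493343 to 17495033), whose G-box window is printed above, had 2.73, 2.31 and 3.11 FPKM in hda15-1, against 3.84, 2.29 and 3.13 FPKM in wild type. Wild type 1 was the highest of the 6 libraries for both. The log2 difference was -0.19 ± 0.22 (SE) for LHCA3, with an interval of -0.69 to 0.32, and -0.13 ± 0.21 for LHCA4, with an interval of -0.60 to 0.35. LHCA1 had 0.683, 0.369 and 0.412 FPKM in hda15-1 and 1.16, 0.122 and 0.308 FPKM in wild type, and LHCA2 had 0.884, 0.478 and 0.3895 FPKM in hda15-1 and 1.52, 0.404 and 0.234 FPKM in wild type. In both, wild type 1 lay above and wild type 3 below every hda15-1 library.

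The photosystem II antenna fell into a low and a higher set. The higher set was LHCB4, the minor antenna CP29, with all 3 genes well above the minimum. LHCB4.1 (AT5G01530, chromosome 5, 208866 to 210548) had 11.3, 20.5 and 14.6 FPKM in hda15-1, against 25.5, 17.1 and 15.6 FPKM in wild type. LHCB4.2 had 8.92, 13.9 and 16.1 FPKM in hda15-1, against 14.2, 11.4 and 14.9 FPKM in wild type. LHCB4.3 had 12.7, 17.7 and 16.1 FPKM in hda15-1, against 24.9, 9.49 and 17.4 FPKM in wild type. In each of the 3 genes hda15-1 1 was the lowest hda15-1 library, and wild type 1 was the highest of all libraries for LHCB4.1 and LHCB4.3. LHCB4.1 gave the lowest log2 difference of the 25 tested genes, -0.32 ± 0.27 (SE) with an interval of -0.93 to 0.29, and LHCB4.2 and LHCB4.3 gave -0.08 and -0.06.

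The genes of the major trimeric antenna, LHCB1 to LHCB3, were much lower. LHCB1.3 (AT1G29930, chromosome 1, 10477885 to 10479114) was the highest of them, with 4.604, 4.63 and 4.52 FPKM in hda15-1, against 4.99, 1.997 and 3.17 FPKM in wild type. The 3 hda15-1 libraries were nearly level, and wild type 1 was above them while wild type 2 and 3 were below. Its log2 difference was 0.41 ± 0.26 (SE), with an interval of -0.18 to 0.99, and did not pass the test. LHCB1.5 had 1.42, 2.15 and 0.873 FPKM in hda15-1 and 2.93, 0.804 and 0.629 FPKM in wild type, and over its whole 1045 bases another gene lies on the opposite strand. Whether counting used strand is not given in the sources used here, so reads of the overlapping genes cannot be told apart. The other LHCB1, LHCB2 and LHCB3 genes lay between 0.0907 and 1.02 FPKM in hda15-1 and between 0 and 1.52 FPKM in wild type.

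In a pair of these low antenna genes every hda15-1 library lay above every wild-type library. Of all genes with a mean above 0 and under 1 FPKM, 5.96% did so and 4.85% lay wholly below. Both genes also share sequence with other genes, in 13.7% of the windows of LHCB1.4 and 28.2% of those of LHCB2.2. LHCB1.4 had 0.333, 0.333 and 0.4604 FPKM in hda15-1 and 0.143, 0.224 and 0.166 FPKM in wild type, and LHCB2.2 had 0.4704, 0.6401 and 0.375 FPKM in hda15-1 and 0.345, 0.204 and 0.0666 FPKM in wild type. Fitted with no minimum level, LHCB1.4 differed by 0.22 and LHCB2.2 by 0.31 on the log2 scale, with limma adjusted p-values of 0.704 and 0.784. Of the remaining minor antenna, LHCB5 (CP26) had 0.836, 1.36 and 1.26 FPKM in hda15-1 and 2.402, 0.669 and 0.682 FPKM in wild type, and LHCB6 (CP24) had 0.463, 0.355 and 0.413 FPKM in hda15-1 and 1.17, 0.179 and 0.172 FPKM in wild type. For both, all hda15-1 libraries lay between wild type 1 above and wild type 2 and 3 below.

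The photosystem subunit genes of the list were drawn mainly from the oxygen-evolving complex, and the 3 tested all belong to it. PSBP1 (AT1G06680, chromosome 1, 2047634 to 2049439), its PsbP subunit, had 22.7, 32.7 and 38.7 FPKM in hda15-1, against 46.6, 22.7 and 31.2 FPKM in wild type, and a log2 difference of -0.07 ± 0.30 (SE) with an interval of -0.75 to 0.62. PSBQ2 (AT4G05180, chromosome 4, 2671523 to 2673243), a PsbQ subunit with a pair of G-boxes in its window, had 0.542, 1.81 and 2.15 FPKM in hda15-1, against 1.52, 1.22 and 1.24 FPKM in wild type, and a difference of 0.04 ± 0.29. In both genes hda15-1 1 was the lowest hda15-1 library and wild type 1 the highest wild-type library. PSBO1, the main manganese-stabilising subunit, lay between 6.73 and 8.39 FPKM in hda15-1 and between 5.23 and 9.52 FPKM in wild type. The photosystem I subunit genes PSAD1 and PSAE1 and the second manganese-stabilising gene PSBO2 were below the minimum, with at most 0.849 FPKM in hda15-1 and 1.07 FPKM in wild type.

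Among the Rubisco genes, RBCS1A (AT1G67090, chromosome 1, 25048158 to 25049667) was by far the most abundant transcript of the 45. It had 441, 551 and 615 FPKM in hda15-1, against 451, 349.6 and 406 FPKM in wild type. As deposited, hda15-1 1 lay just below wild type 1, and the other 2 hda15-1 libraries lay above all of wild type. The sum of all FPKM was also smaller in hda15-1 1, 879239 against 937191 in wild type 1. The log2 difference was 0.41 ± 0.22 (SE), with an interval of -0.10 to 0.91, and its unadjusted p of 0.102 by limma was the smallest of the 25. RBCS3B (AT5G38410, chromosome 5, 15376988 to 15378642) gave the highest difference of the 25, 0.59 ± 0.34 with an interval of -0.19 to 1.36. Its levels were 2.97, 3.69 and 2.66 FPKM in hda15-1, against 3.68, 0.821 and 1.35 FPKM in wild type, so that hda15-1 overlapped with wild type 1 alone. RBCS1B and RBCS2B were below the minimum, and 18.3% of the windows of RBCS3B occur in another gene, against 1.48% for RBCS1A.

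As a share of the summed FPKM of all 45 genes, RBCS1A took 68.2%, 67.9% and 71.4% in hda15-1, against 60.2%, 64.3% and 63.9% in wild type. The genotypes did not overlap in this share, which was looked at after the values were seen and was not tested. Without RBCS1A the other 44 genes summed to 205, 260.4 and 247 FPKM in hda15-1 and to 299, 194 and 229 FPKM in wild type, with wild type 1 highest and wild type 2 lowest.

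The wild-type libraries did not stand level with each other in these genes. Wild type 1 was the highest wild-type library in 20 of the 25 tested genes, or 80%, against 39.8% of all tested genes. It was the highest of all 6 libraries in 14, or 56%, against 15.5% of all. Its median departure from the mean of wild type 2 and 3 was 0.49 on the log2 scale over the 25 genes and -0.01 over all genes. Against the mean of wild type 1 and 3, wild type 2 had a median departure of -0.44 over the 25 genes and -0.02 over all. A high wild type 1 by itself lowers this value, so the 2 departures are not independent. Among hda15-1 libraries, hda15-1 1 was the lowest in 15 of the 25 genes, against 43.4% of all tested genes. The hda15-1 2 library was the highest in 15, or 60%, against 20.8% of all. The median departure of hda15-1 1 from the mean of hda15-1 2 and 3 was -0.26 over the 25 genes and -0.05 over all. That of hda15-1 2 from the mean of hda15-1 1 and 3 was 0.21 and -0.01. These departures too are not independent.

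Wild type 1 stood apart by role in an uneven way. It was the highest wild-type library in 2 of 2 tested photosystem I antenna genes, 5 of 6 photosystem II antenna genes, 3 of 3 photosystem subunit genes, 6 of 7 chlorophyll synthesis genes, 2 of 2 Rubisco genes and 2 of 2 GLK genes, and in 0 of 3 carotenoid synthesis genes. Its median departure was 0.83 for the photosystem II antenna and -0.41 for carotenoid synthesis. Of the 20 genes below the minimum it was highest in 17, against 36.2% of all genes below it. Relative depth, read from the smallest steps of the values with wild type 1 set to 1, was 0.923 to 1.17 in hda15-1 and 1 to 1.25 in wild type, and the part of depth or of any other property of that library in this pattern was not tested.

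**Figure D3:**
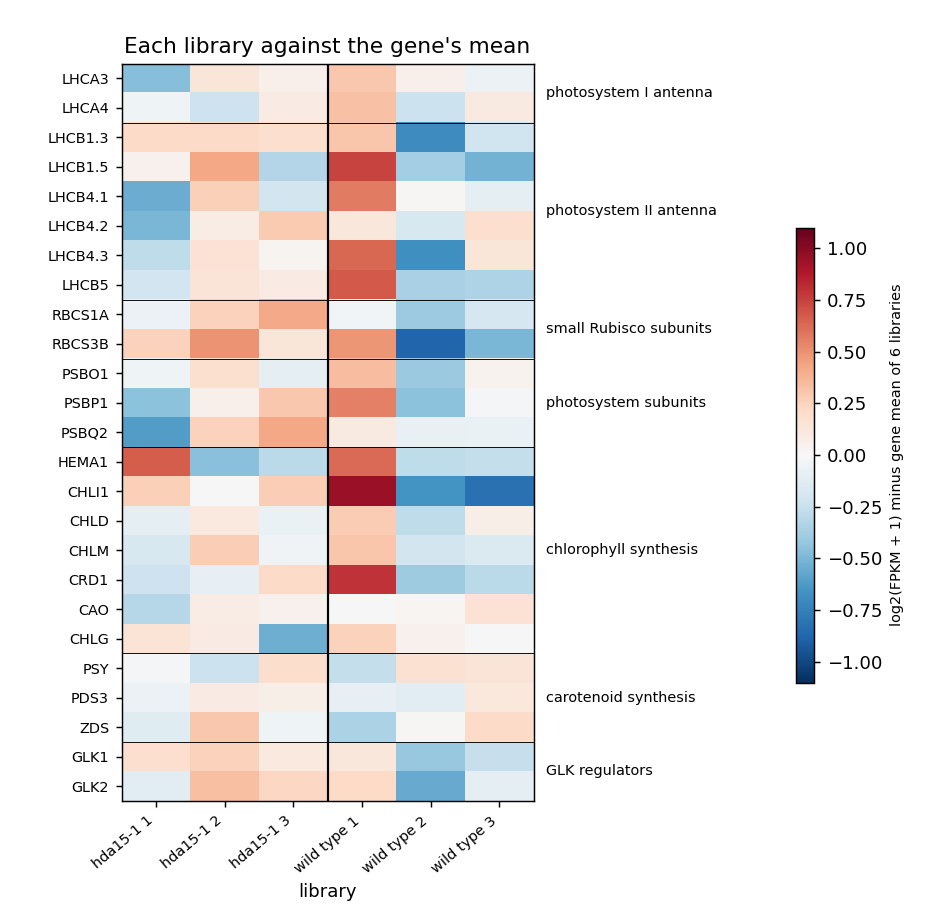
Level of each of the 25 tested genes in each library as its difference from the mean of that gene over the 6 libraries on log2(FPKM + 1), red above the mean and blue below it, with hda15-1 left of the vertical line and wild type right of it. The wild type 1 column is mostly red and the wild type 2 column mostly blue, except in the carotenoid synthesis rows, and HEMA1 is red in the library numbered 1 of each genotype.

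Because wild type 1 stood apart, the comparison was repeated without wild type 1. Then 24 of the 45 genes were tested, LHCB5 having dropped under the minimum, and 0 were called, against 0.207% of the 15001 tested genes called higher and 0.0333% called lower. The median log2 difference was 0.20 over the 24 genes and 0.01 over all, and 17 of the 24 were above 0. Leaving out other libraries instead, the median was -0.14 without wild type 2, with 10 of 25 above 0, and -0.06 without hda15-1 2, with 9 of 25 above 0. It was 0.11 without hda15-1 1, with 18 of 25 above 0. Every hda15-1 library lay above both remaining wild-type libraries in 7 of the 24, or 29.2%, against 13.3% of all tested genes, and below both in 0, against 8.94% of all. Since wild type 1 was the highest wild-type library in most of these genes, its removal had to raise this share more than in all genes, and nothing about the genotype is read from it. The 7 were LHCB1.3, LHCB1.5, RBCS1A, RBCS3B, CHLI1, CRD1 and GLK1. Without wild type 1, CHLI1 differed by 0.92 ± 0.19 (SE) with an interval of 0.47 to 1.37 and a limma adjusted p of 0.258, and RBCS3B by 0.98 ± 0.22 with an adjusted p of 0.352. LHCB1.3 differed by 0.66 ± 0.21 with an adjusted p of 0.699, and GLK1 by 0.52 ± 0.20 with an adjusted p of 0.904. These 4 had an unadjusted p under 0.05 in that fit, as did 5.21% of all genes, and none passed the test.

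**Figure D4:**
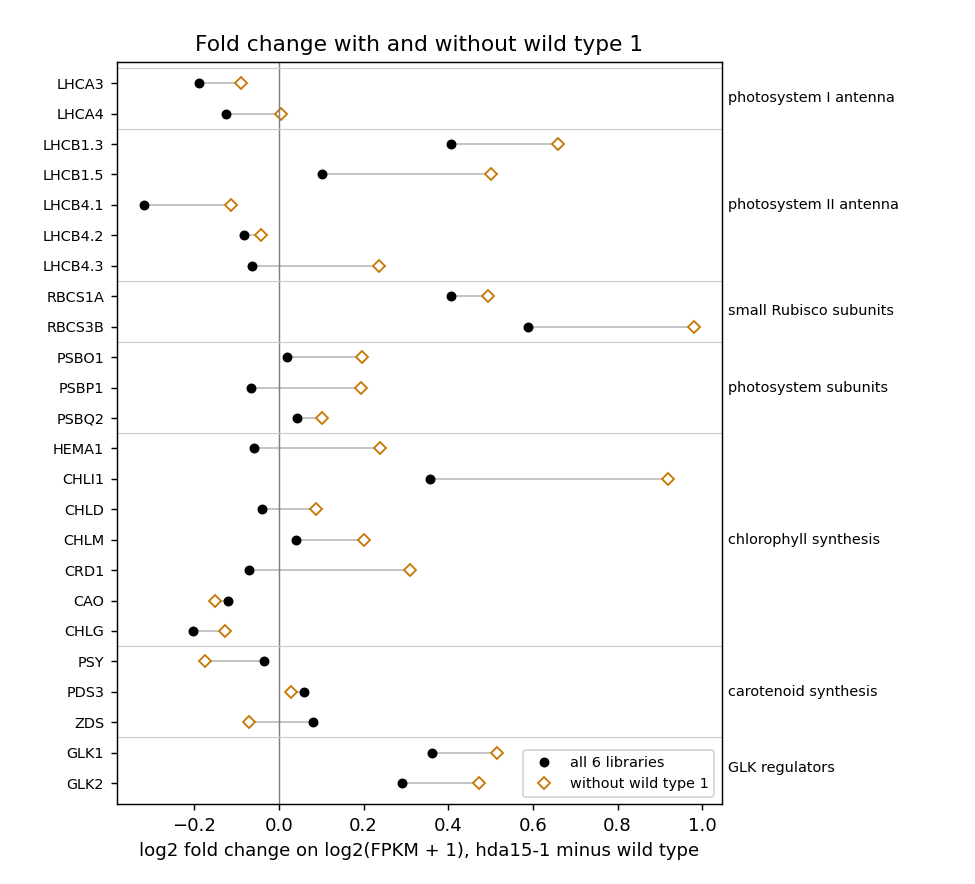
Log2 difference of each of 24 tested genes, hda15-1 minus wild type on log2(FPKM + 1), without wild type 1 (open diamonds) and with all 6 libraries (filled points), joined by a line. CHLI1 stands at 0.92 without that library and 0.36 with it, and RBCS3B at 0.98 and 0.59.

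Further genes of the pathway were read from the same fit. Of 74 further loci for photosystem, electron transport, Calvin cycle, tetrapyrrole, chlorophyll breakdown and carotenoid genes and their regulators, 54 were tested and 0 were called in either direction, against 0.199% of all tested genes called higher and 0.0199% called lower. With shares this low, 0 calls in a list of this size or smaller says little about its genes. Of the 54, 31 were above 0 and 23 below, with a median log2 difference of 0.02. TKL1, a transketolase of the Calvin cycle, was the 1 gene with an unadjusted p under 0.05. It had 36.1, 22.8 and 28.7 FPKM in hda15-1 and 23.4, 16.5 and 17.3 FPKM in wild type, a difference of 0.58 ± 0.22 (SE) with an unadjusted p of 0.0318 and an adjusted p of 1.000 by limma. PSBX, a small photosystem II subunit, had 11.8, 18.6 and 30.7 FPKM in hda15-1 and 16.9, 5.39 and 8.53 FPKM in wild type, a difference of 0.96 ± 0.43. ATPD, the delta subunit of the chloroplast ATP synthase, had 4.93, 7.22 and 4.87 FPKM in hda15-1 and 6.17, 1.99 and 3.11 FPKM in wild type, a difference of 0.57 ± 0.32. In these last 2 genes hda15-1 overlapped with wild type 1 and with no other wild-type library.

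Of the 54 genes, 4 did not overlap between genotypes, 2 above and 2 below in hda15-1, which is near the 5.78% and 3.43% of all tested genes. They are named for their place among the smallest p of their lists. PIF3, a repressor of these genes in dark-grown seedlings, had 3.21, 4.93 and 3.92 FPKM in hda15-1 and 2.05, 3.102 and 2.88 FPKM in wild type, a difference of 0.45 ± 0.21 (SE). LYCB, lycopene beta-cyclase, had 21.05, 27.1 and 30.6 FPKM in hda15-1 and 19.6, 19.9 and 19.5 FPKM in wild type, a difference of 0.39 ± 0.18. LUT5, a carotene hydroxylase, had 1.098, 1.32 and 1.44 FPKM in hda15-1 and 2.34, 1.82 and 1.93 FPKM in wild type, a difference of -0.41 ± 0.18. HEMA2, the second glutamyl-tRNA reductase gene, had 14.8, 16.5 and 16.3 FPKM in hda15-1 and 18.5, 17.9 and 19.5 FPKM in wild type, a difference of -0.22 ± 0.15. None of the 4 passed the test. The remaining genes with the smallest p in their lists, PSAD2, PSAH1, PSBW, FD1, GAPA, YCF54, NYC1, PAO and CGA1, overlapped between genotypes.

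PIF1, the main repressor of light-dependent germination, was abundant, with 80.5, 138 and 132 FPKM in hda15-1 and 105, 113 and 125 FPKM in wild type, and the genotypes overlapped.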

How the data were processed

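Messenger RNA of 6 whole-seed libraries was measured by sequencing, 3 per genotype, and libraries were grouped by the genotype in the labels. Levels are FPKM as deposited by the authors, 1 table per library, per the file headers, with 61 rows carrying no locus. The submitters' processing notes list Bowtie (0.12.2), TAIR10, Cufflinks and Cuffdiff, and the settings, the annotation and the use of strand were not stated. Read totals are unknown, so no count test was run. FPKM scales by library and length, so a shift in a few abundant transcripts moves all others.

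Log2(FPKM + 1) was compared with limma 3.58.1 in R 4.3.3 (trended empirical Bayes, genotype as the only term, two-sided, Benjamini-Hochberg over all genes averaging 1 FPKM or more, threshold 0.05). The fit was also run on simulated data with independent noise for each gene and no shift shared within a library. That run therefore has no bearing on the pattern of wild type 1. Alternatives covered pseudocount, minimum, scaling, variance model, a replicate block and each library left out. The plan set full values for the most abundant tested gene of each role and the 2 with the smallest p. Of each further list it set them for the 2 with the smallest p. Values of other genes were added, and some further genes with the smallest p are named without values. Genes and lists were chosen with earlier results of these data known. Positions, promoter windows and 50-base shared windows came from RefSeq TAIR10.1.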

Additional observations from a re-analysis of the deposited data

How the results depend on the processing

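No photosynthesis or pigment gene was called under any of the 16 alternatives, which included a pseudocount of 0.1 and a minimum of 5 FPKM. The number of all genes higher in hda15-1 was 30 in the comparison as reported. It was 13 at a minimum of 5 FPKM, 18 with equal sums and 73 with the libraries numbered 2 and 3 only, where 12 were lower. The cause was not tested. Leaving out 1 library at a time gave 8 (without hda15-1 2) to 31 (without wild type 1) higher and 3 to 5 lower, the 5 without wild type 1. The median of all genes was -0.050 with upper-quartile scaling and -0.065 with equal sums. With these scalings 32% and 28% of the 25 genes were above 0, against 39.8% and 37.0% of all genes, where 52% and 54.4% were above 0 as reported.

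With the libraries numbered 2 and 3 only, the median log2 difference was 0.26 over the photosynthesis and pigment genes, 0.050 for the photosystem I antenna and 0.36 for the photosystem II antenna. There LHCA3 was at 0.10, LHCB4.1 at 0.079, PSBP1 at 0.40, PSAD2 at 0.30, PSAH1 at 0.080 and CGA1 at -0.082, each of the opposite sign to the value with 6 libraries. PSBQ2 was at -0.017 with a pseudocount of 0.1, -0.011 with upper-quartile scaling and -0.038 with equal sums. PDS3 was at -0.014 with upper-quartile scaling and -0.029 with equal sums, and ZDS at -0.015 with equal sums.

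Leaving out 1 library at a time, the median of the tested photosynthesis and pigment genes ranged from -0.14 to 0.20 and that of the chlorophyll synthesis genes from -0.19 to 0.20, both 0.20 without wild type 1. The sign was followed for genes picked by highest level or smallest p in their role or list. It also turned for PSBP1 (-0.31 to 0.195), CAO (-0.19 to 0.0050), CHLG (-0.33 to 0.016), LHCA4 (-0.27 to 0.0059), PSBQ2 (-0.16 to 0.36) and ZDS (-0.072 to 0.21). Outside the 45 it turned for PSAD2 (-0.35 to 0.078), PSAH1 (-0.30 to 0.015), PSBW (-0.23 to 0.0072), PAO (-0.0045 to 0.36) and CGA1 (-0.036 to 0.18). Of these picked genes, leaving out wild type 1 turned PSBP1, LHCA4, ZDS, PSAD2, PSAH1 and PSBW. Leaving out hda15-1 1 turned PSBP1, CAO, PSAD2 and CGA1. Leaving out hda15-1 2 turned PSBQ2 and ZDS, and leaving out hda15-1 3 turned PSBQ2, CHLG and PAO. Among the other tested genes of the 45, LHCB4.3 (0.24), HEMA1 (0.24), CHLD (0.087) and CRD1 (0.31) also turned above 0 without wild type 1. Outside the 45 others turned too, among them PSAF (0.11) and PETC (-0.10).

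For libraries of equal number the correlation of their deviations over all tested genes was -0.08, -0.11 and -0.16. For libraries of unequal number it lay between -0.08 and 0.21. These values do not settle whether the numbers pair libraries. With a replicate block 13 genes were higher and 3 lower, and none of the 45. Read totals are unknown, and what size of difference could be detected under 1 FPKM was not measured.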
